A study of Mus musculus with 6 samples.

Results

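The genes described here are Mbp, Pmp22, Mag, Cnp, Prx, Mal, Cntnap2 and Cadm4, which encode proteins of myelin and of the contact between axon and glial cell. These 8 genes were chosen by name, with their values in the comparison of TFEB KO and WT muscle already known, so that the differences given for them are a description and not a test. A probe set was taken as theirs where the platform annotation gives it that single gene symbol. By this rule 7 of the 8 genes were measured, on 19 of the 22626 probe sets analysed, and 12393 genes in all have a probe set of their own. Mbp had 8 probe sets, Cnp and Cntnap2 had 3 each, Mal had 2, and Pmp22, Mag and Cadm4 had 1 each. Prx had 0, and its level is not analysed here.

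Myelin is the stack of lipid-rich membrane that a glial cell winds around an axon, and in the nerves that run through a muscle it is made by Schwann cells. Compact myelin, where the membranes lie against each other, is held together by proteins such as myelin basic protein, while Schwann cell cytoplasm and signalling molecules stay in the non-compact parts next to the axon and at the paranodes. At the nodes of Ranvier and beside them, adhesion molecules on the axon meet partners on the glial cell and keep channels in place, which is what allows fast conduction. Skeletal muscle fibers do not form myelin, and a piece of muscle holds it only in its nerves, a small part of the tissue. Several of the 8 genes are also active in other cells.

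Total RNA came from muscle of C57BL/6 mice at the age of 1 month, in a group of 3 WT and a group of 3 TFEB KO animals, and was hybridised to Affymetrix arrays, 1 array per mouse. In the KO animals a floxed Tcfeb gene (the older name of Tfeb, which encodes transcription factor EB, a regulator of lysosomal and metabolic genes) was deleted by Cre under the MLC1f promoter, which is active in muscle fibers. The WT mice served as controls, and the replicates are labelled as biological. The sources used here do not name the muscle, the sex of the mice or their litters. The values are log2 RMA values, in which background was removed, the arrays were brought to a common distribution and the probes of a probe set were summarised, so that a value is a relative brightness without a unit of molecules and a difference of 1 is a factor of 2.

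Tfeb itself read 8.61, 8.55 and 8.96 in WT and 7.10, 7.23 and 7.04 in KO muscle, a difference of -1.58 (SE 0.13, limma adjusted p = 0.00787) that fits the labels of all 6 arrays. Whether its probe set reads the deleted exons is unknown here. The arrays correlated at r = 0.992 to 0.9967 within a group and at r = 0.9889 to 0.9934 between groups, over all probe sets. The 14 muscle fiber markers measured, from Acta1 to Mb, were bright in all arrays, with a lowest mean value of 12.95 for Ryr1, as the tissue label says. Among all probe sets, 361 passed the test, 170 higher and 191 lower, but this number depended on single arrays. Leaving out WT 1, WT 2 or WT 3 gave 21, 60 and 80, and leaving out KO 1, KO 2 or KO 3 gave 438, 44 and 93.

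The stretches of genome just before the start sites of Mal, Cntnap2 and Cadm4 are shown because these genes, with Mbp, had the lowest KO values relative to WT among the 7 genes, and because TFEB is a DNA-binding factor whose element has a known core. They are from RefSeq (GRCm38.p6), cover the 250 bases upstream of an annotated start, and read 5′ to 3′ on the strand of the gene. Cntnap2 has 2 annotated starts in the table, and both are given. Capitals mark a SOX-type motif, ACAAAG or ACAATG on either strand, the letters that SOX10 and its relatives prefer.
Mal, chr2:127656696-127656945, minus strand: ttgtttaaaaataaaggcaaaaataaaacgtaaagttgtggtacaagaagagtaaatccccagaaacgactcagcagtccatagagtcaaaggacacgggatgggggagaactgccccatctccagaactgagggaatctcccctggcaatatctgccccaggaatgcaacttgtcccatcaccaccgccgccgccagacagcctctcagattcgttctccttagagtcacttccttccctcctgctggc
Cntnap2, first start, chr6:45059811-45060060, plus strand: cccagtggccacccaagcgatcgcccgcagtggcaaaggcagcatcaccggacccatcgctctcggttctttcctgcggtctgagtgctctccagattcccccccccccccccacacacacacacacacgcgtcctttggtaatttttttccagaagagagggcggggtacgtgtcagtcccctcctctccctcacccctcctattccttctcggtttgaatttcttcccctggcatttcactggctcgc
Cntnap2, second start, chr6:47244146-47244395, plus strand: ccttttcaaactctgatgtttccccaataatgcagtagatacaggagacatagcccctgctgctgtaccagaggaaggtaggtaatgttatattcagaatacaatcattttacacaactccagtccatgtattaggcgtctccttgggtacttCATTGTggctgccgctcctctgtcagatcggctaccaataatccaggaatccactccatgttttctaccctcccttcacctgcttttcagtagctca
Cadm4, chr7:24481773-24482022, plus strand: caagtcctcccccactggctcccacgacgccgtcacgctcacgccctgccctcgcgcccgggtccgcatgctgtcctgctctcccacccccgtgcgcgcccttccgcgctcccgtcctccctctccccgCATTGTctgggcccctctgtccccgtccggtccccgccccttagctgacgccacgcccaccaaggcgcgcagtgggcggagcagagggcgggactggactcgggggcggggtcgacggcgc

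These windows share little in base composition. GC content, over windows of 300 bases that run on past the start, was 77.0% for Cadm4, 51.0% for Mal and 59.7% and 46.3% for the first and second start of Cntnap2, with a median of 52.7% over all 32851 windows of the table. Windows were found for 7 of the 8 genes, 13 windows in all, of which Pmp22 had 4 and Mag 3. The gene without a window is Mbp, so the motif counts do not cover it, while Prx had 1 window. The core of the TFEB element, CACGTG, was in 0 of the 13 windows and in 7.15% of all windows, and the longer form TCACGTGA was in 0 and in 0.974%. An EGR-type motif, GCGGGGGCG or GCGTGGGCG on either strand, was in 0 of 13 and in 3.47%. The SOX-type letters were in 5 of 13 windows, of Cadm4, Cnp, Cntnap2 and Mag, against 28.6% of all windows, and the 2 of Mag are a single site in overlapping windows. In the windows printed, the match lay 97 bases before the second start of Cntnap2 and 121 bases before the start of Cadm4. A match of letters is not a bound site, and the absence of a match in a window of this length says nothing about the rest of the gene.

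On the probe set with the highest mean over the 6 arrays, taken as that of the gene, all 7 measured genes had a lower mean in TFEB KO muscle than in WT muscle. The differences ran from -1.79 for Mbp to -0.11 for Cnp, with a median of -0.64, while the median over all 12393 genes was -0.01 and the central span from the 10th to the 90th percentile was -0.24 to 0.26. In 6 of the 7 genes every KO array lay below every WT array, as in 12.9% of all genes, and 3 of the 7, Mbp, Cntnap2 and Cadm4, passed the test, as did 0.702% of all genes in the same direction. Over the 19 probe sets, 17 were lower and 2 were higher, 14 had all KO arrays below all WT arrays (13.3% of all probe sets), and 5 passed the test, all lower (0.844% of all probe sets). Since the genes were chosen on this comparison, nothing is read from these counts. In whole tissue, fewer cells of a type and less RNA per cell cannot be told apart.

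**Figure D1:**
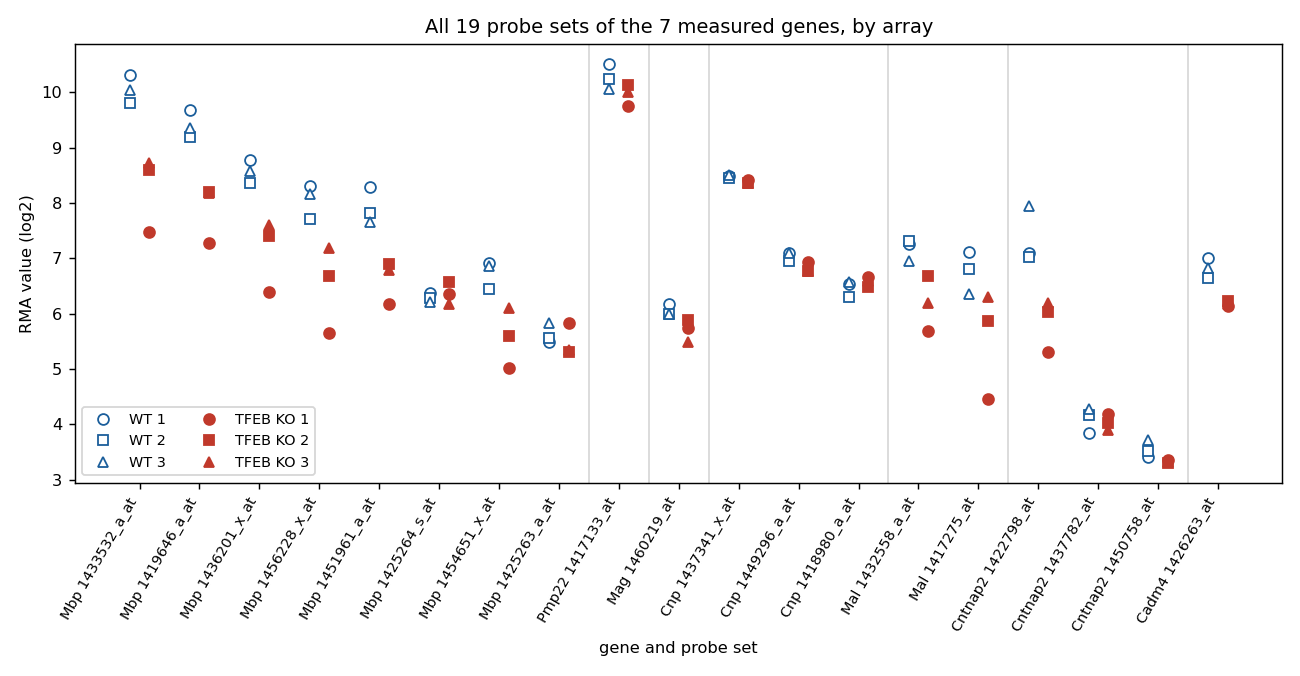
Log2 RMA value (vertical axis) of each of the 19 probe sets (horizontal axis, grouped by gene) in each array, with WT as open blue symbols, TFEB KO as filled red symbols, and circle, square and triangle for replicates 1, 2 and 3. KO 1 is the lowest point in 6 of the 8 Mbp probe sets, and the groups overlap in 5 of the 19 probe sets.

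Mbp encodes myelin basic protein, which lines the cytoplasmic face of the membrane and draws adjacent layers together in compact myelin. Its brightest probe set (1433532_a_at) read 10.31, 9.81 and 10.04 in WT muscle and 7.47, 8.59 and 8.72 in KO muscle. All KO arrays lay below all WT arrays, and KO 1 lay far below the other two. The means were 10.05 ± 0.25 (SD, n = 3) in WT and 8.26 ± 0.69 (SD, n = 3) in KO, a difference of -1.79 (SE 0.30, 95% interval from limma -2.48 to -1.10), or 3.46-fold lower. Without KO 1 the difference was -1.40, so that the direction and most of the size were also present in the other two KO mice.

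The 8 probe sets of Mbp did not all behave alike. In 6 of them every KO array lay below every WT array, with differences from -1.16 to -1.79, and in each of these 6 KO 1 was the lowest array. The second brightest (1419646_a_at) read 9.69, 9.19 and 9.36 in WT and 7.28, 8.20 and 8.19 in KO, a difference of -1.52. Another (1451961_a_at) read 8.29, 7.81 and 7.66 in WT and 6.17, 6.89 and 6.79 in KO, a difference of -1.31, and these 3 are the Mbp probe sets that passed the test. The other 3 of the 6 end in _x_at, a mark that Affymetrix gives to probe sets that may also bind other transcripts, and their differences were -1.44 (1436201_x_at), -1.56 (1456228_x_at) and -1.16 (1454651_x_at).

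The other 2 probe sets of Mbp did not show the lower values. The probe set 1425264_s_at read 6.38, 6.29 and 6.21 in WT and 6.36, 6.58 and 6.17 in KO, with a difference of 0.08 (95% interval -0.20 to 0.35). The probe set 1425263_a_at read 5.49, 5.55 and 5.82 in WT and 5.84, 5.30 and 5.35 in KO, with a 95% interval of -0.49 to 0.24. In both, the groups overlapped, and both intervals lie above -1.16, the value nearest 0 among the other 6. The Mbp locus is known to give several transcripts from different starts and splice forms, and the sources used here do not say which of them each probe set reads.

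**Figure D2:**
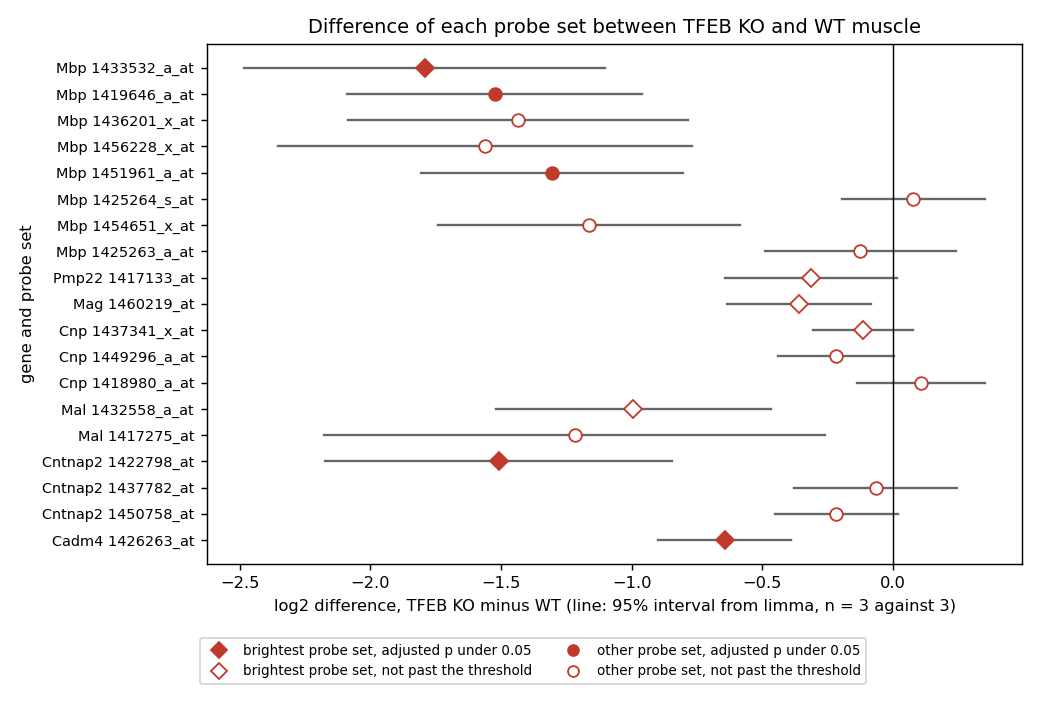
Log2 difference, TFEB KO minus WT (horizontal axis), of each of the 19 probe sets (vertical axis), with the 95% interval from limma (n = 3 against 3) as a line, diamonds for the brightest probe set of a gene and filled symbols for an adjusted p under 0.05. The intervals of 6 Mbp probe sets, both Mal probe sets, Mag, Cadm4 and 1 Cntnap2 probe set lie below 0, and those of the other 8 probe sets reach 0.

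Pmp22 encodes peripheral myelin protein 22, a membrane protein of compact myelin in peripheral nerve whose gene dosage is known to matter for myelin in humans and mice. It is also made by fibroblasts and other cells outside the nerve. Its only probe set read 10.51, 10.25 and 10.06 in WT and 9.75, 10.12 and 10.002 in KO. It was the only measured gene of the 8 whose groups overlapped on the brightest probe set, since KO 2 lay above WT 3. The difference was -0.31 (SE 0.14, 95% interval -0.64 to 0.02), and it was -0.21 without KO 1.

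Mal encodes a small membrane proteolipid that sorts cargo with lipid rafts to the membrane of myelinating and epithelial cells. Its brighter probe set (1432558_a_at) read 7.26, 7.32 and 6.96 in WT and 5.68, 6.68 and 6.20 in KO, with no overlap. The means were 7.18 ± 0.20 (SD, n = 3) and 6.19 ± 0.50 (SD, n = 3), a difference of -0.99 (95% interval -1.52 to -0.47), or 1.99-fold lower. Its second probe set (1417275_at) read 7.11, 6.81 and 6.35 in WT and 4.46, 5.87 and 6.29 in KO. The groups did not overlap there either, but WT 3 and KO 3 lay close together, and the SD of 0.96 among the KO arrays came mostly from KO 1. Neither probe set of Mal passed the test over all probe sets (limma adjusted p = 0.0783 and 0.191), and without KO 1 the difference of the brighter one was -0.74.

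Mag and Cnp are proteins of the non-compact parts of the sheath. Mag, the myelin-associated glycoprotein, sits on the innermost glial membrane and binds gangliosides of the axon. It read 6.17, 6.00 and 6.00 in WT and 5.74, 5.88 and 5.48 in KO, with means of 6.06 ± 0.10 (SD, n = 3) and 5.70 ± 0.20 (SD, n = 3). The KO arrays lay below the WT arrays by a margin of 0.12, and the difference was -0.36 (95% interval -0.64 to -0.08), or 1.28-fold.

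Cnp encodes a nucleotide phosphodiesterase that keeps cytoplasmic channels open within the sheath. Its brightest probe set (1437341_x_at) read 8.49, 8.45 and 8.51 in WT and 8.41, 8.35 and 8.35 in KO. The groups were separated by 0.04 only, and the difference of -0.11 had a 95% interval of -0.31 to 0.08. The other two probe sets went in opposite directions, with -0.22 (1449296_a_at, interval -0.44 to 0.00) and 0.11 (1418980_a_at, interval -0.14 to 0.35). Cnp is also active in cells other than myelinating glia.

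Cntnap2 and Cadm4 stand for the contact between axon and glia. Cntnap2 encodes Caspr2, an adhesion molecule of the axon that gathers potassium channels beside the paranode; the cell bodies of these neurons lie outside the muscle, and which cells carry its transcript here was not measured. Its brightest probe set (1422798_at) read 7.09, 7.02 and 7.94 in WT and 5.30, 6.03 and 6.20 in KO. WT 3 was high and KO 1 low, and still the lowest WT array lay 0.83 above the highest KO array. The means were 7.35 ± 0.51 (SD, n = 3) and 5.84 ± 0.48 (SD, n = 3), a difference of -1.51 (SE 0.29, 95% interval -2.17 to -0.85), or 2.85-fold lower. The other two probe sets of Cntnap2 were dim, with means over the 6 arrays below the 25th percentile of all probe sets (4.69). They differed by -0.07 (1437782_at) and -0.22 (1450758_at), and values so near the bottom of the scale leave little room for a lower one.

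Cadm4 encodes a nectin-like adhesion molecule that Schwann cells carry toward the axon. It read 7.0025, 6.64 and 6.83 in WT and 6.13, 6.23 and 6.18 in KO. The KO arrays lay close together, and the WT arrays lay above them by at least 0.41. The means were 6.82 ± 0.18 (SD, n = 3) and 6.18 ± 0.05 (SD, n = 3), a difference of -0.64 (SE 0.11, 95% interval -0.90 to -0.39), or 1.56-fold lower. Unlike Mbp, Mal and Cntnap2, it had little spread among the KO mice, and its difference without KO 1 was -0.62.

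The measured genes differed in their spread among arrays. Over all probe sets the SD among the 3 KO arrays had a median of 0.13 and a 95th percentile of 0.37, and the brightest probe sets of Mbp (0.69), Mal (0.50) and Cntnap2 (0.48) exceeded that percentile, while those of Mag (0.20), Pmp22 (0.19), Cadm4 (0.05) and Cnp (0.03) did not. KO 1 was the lowest KO array in 5 of the 7 genes and in 11 of the 19 probe sets, and in 35.1% of all probe sets. WT 1 was the highest WT array in 4 of the 7 genes, WT 3 in 2 and WT 2 in 1. From the margin between the lowest WT and the highest KO array, the genes fall in the order Mbp (1.09), Cntnap2 (0.83), Cadm4 (0.41), Mal (0.28), Mag (0.12), Cnp (0.04) and Pmp22, where it was negative (-0.07).

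Other genes of the myelin pathway, none of them among the 8, were counted beside them. The lists of other genes, here and below, were also chosen with earlier results of these data known, so their counts are a description. Of 12 further peripheral myelin proteins, 7 were measured, and all 7 had a lower mean in KO muscle, with a median of -0.16. By limma 0 of the 7 fell and 3 were lower at an unadjusted p under 0.05, which 8.66% of all genes reached in that direction and 8.49% in the other. A test that the study lists for its data in general also called 0 after adjustment. Whether the study used it for the arrays is not known here. Of the other settings of limma on all 6 arrays, 4 called 1 of these genes and 1, the mean over a gene's probe sets, called 2. Ndrg1, whose loss causes a demyelinating neuropathy, read 8.55, 8.50 and 8.60 in WT and 7.96, 8.18 and 8.09 in KO, a difference of -0.47 (adjusted p = 0.053). The groups did not overlap, and 2 of its 4 dimmer probe sets passed the test, with -0.55 (adjusted p = 0.0435) and -0.81 (adjusted p = 0.0416). Ncmap, a small membrane protein of non-compact myelin, read 6.53, 6.11 and 6.13 in WT and 5.22, 5.55 and 5.71 in KO, a difference of -0.76 (adjusted p = 0.0609). The other 5 genes of this list had no probe set of their own here.

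Myelin is rich in galactolipids and very long chain lipids. All 10 of 10 listed enzymes of myelin lipid metabolism, not all of which make these lipids, were measured. Their median difference was 0.01, with 5 lower and 5 higher, and 0 passed the test in either direction by limma (1 at an unadjusted p under 0.05, and without KO 3 alone 1 fell). Ugt8a, the transferase that makes galactosylceramide, a characteristic lipid of myelin, had the lowest difference. It read 5.92, 5.36 and 5.54 in WT and 3.78, 4.44 and 4.84 in KO, a difference of -1.26 (95% interval -1.84 to -0.67, adjusted p = 0.0554), and its dimmer probe set differed by -0.39. The gene with the next smallest p, Degs1, a desaturase used in most cells, differed by 0.20 (adjusted p = 0.465).

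Of 20 other genes of the node, the paranode and axon-glia contact, 17 were measured, with 9 lower, 8 higher and a median of -0.01. Kcna1 was the 1 gene that fell (0.702% of all genes did) and 0 rose (0.871% of all genes did). It encodes the Kv1.1 potassium channel subunit, which Cntnap2 is known to hold at the juxtaparanode. Kcna1 read 6.77, 6.38 and 6.48 in WT and 5.89, 5.92 and 5.93 in KO, a difference of -0.63 (SE 0.12, adjusted p = 0.0437). The 3 KO arrays were nearly equal and lay below all WT arrays. The call was lost without any single array (adjusted p from 0.0666 to 0.132).

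**Figure D3:**
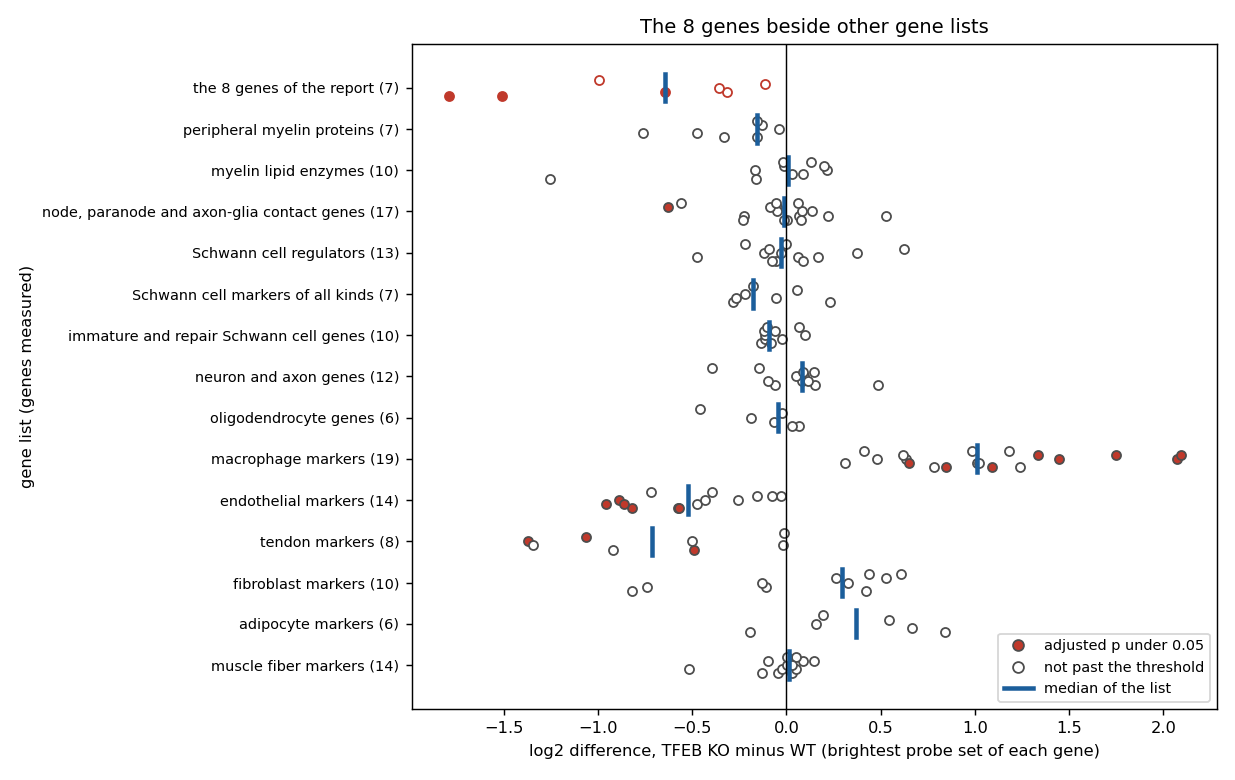
Log2 difference, TFEB KO minus WT (horizontal axis), of each measured gene on its brightest probe set, by gene list (vertical axis, number of genes measured in brackets), with filled circles for an adjusted p under 0.05 and a blue bar for the median. The 7 measured genes have a median of -0.64, the peripheral myelin proteins -0.16, the Schwann cell markers -0.18, the macrophage markers 1.01, the endothelial markers -0.52 and the tendon markers -0.71.

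Of the genes that mark Schwann cells whether or not they form myelin, and of those that direct myelination, 0 passed the test by limma. Of the 10 Schwann cell markers, 7 were measured, with a median of -0.18, 5 lower and 2 higher, and 0 reached an unadjusted p under 0.05. S100b, a calcium-binding protein of glia, differed by -0.28 (95% interval -0.57 to 0.01), and Erbb3, the neuregulin receptor that keeps Schwann cells alive, by -0.22 (95% interval -0.51 to 0.07). Sox10, the transcription factor of all Schwann cells, was looked up after its values were seen. It read 6.69, 6.83 and 6.84 in WT and 6.85, 6.71 and 6.64 in KO on its brightest probe set (95% interval -0.28 to 0.17), and its 3 probe sets differed by -0.05, -0.13 and -0.05. These intervals leave room for a lower level of up to 0.57 on the log2 scale for S100b and 0.28 for Sox10, and that of Mbp runs from -2.48 to -1.10. The difference between those genes and Mbp was not tested, and 3 genes of this list had no probe set of their own.

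Of 14 Schwann cell regulators 13 were measured, with a median of -0.03, and 1 lower and 2 higher ones reached an unadjusted p under 0.05. Dicer1, the nuclease that makes microRNAs in all cells, differed by -0.47 (adjusted p = 0.0508), and its dimmer probe set by -0.03 with overlapping groups. Nab2, a partner of the EGR factors, differed by 0.37 (adjusted p = 0.115). The 10 genes of immature and repair Schwann cells, which rise in injured nerve, had a median of -0.09, and 0 reached an unadjusted p under 0.05. The smallest p among them were those of Ngfr, the low-affinity neurotrophin receptor (-0.13, adjusted p = 0.544), and Ncam1, a neural adhesion molecule (-0.11, adjusted p = 0.657). Of 13 neuron and axon genes 12 were measured, with a median of 0.08, 4 lower, 8 higher and 0 past the test (1 in each direction at an unadjusted p under 0.05). Uchl1, a neuronal deubiquitinase, differed by 0.48 (adjusted p = 0.177) and Stmn2, a protein of growing axons, by -0.39 (adjusted p = 0.189). Of the neuron list, Nefl, Nefm, Nefh, Tubb3, Snap25, Syt1, Isl1 and Map2 had means below the 25th percentile of all probe sets (4.69). So did Ngfr, Gap43, Sox2, Shh, Gdnf, Artn and Olig1 of the immature and repair list. Values so dim leave little room for a lower one. The 6 measured of 9 oligodendrocyte genes, which mark the myelinating cell of the brain, had a median of -0.04 and 0 past the test (1 lower at an unadjusted p under 0.05). Olig2 was near the bottom of the scale at 3.11 in WT and 2.93 in KO, and Hapln2, which encodes a link protein of nodes, differed by -0.46 (adjusted p = 0.111).

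The genes whose pattern over the 6 arrays was nearest to that of Mbp were found among the other 12386 genes by the root mean square difference of the values, each taken relative to its WT mean. They were Ugt8a (0.40), Tfeb itself (0.46), Chad, a cartilage and tendon matrix protein (0.48), Rasd2, a small GTPase (0.57), and Idh2, the mitochondrial isocitrate dehydrogenase (0.58). Among the 8 genes Cntnap2 was nearest to Mbp at 0.40, followed by Mal at 0.64, and Cnp was farthest at 1.26. Nearest to Cntnap2 were Chad (0.17), Tfeb (0.33), Fmod, a tendon and connective tissue proteoglycan (0.34), Col9a1, a cartilage collagen (0.36), and Slc15a2, a peptide transporter (0.37). Chad read 7.33, 7.62 and 8.20 in WT and 5.85, 6.59 and 6.68 in KO, and like Cntnap2 it was highest in WT 3 and lowest in KO 1. A ranking over 6 arrays that differ mainly by group places genes of like fold change together and carries no p.

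**Figure D4:**
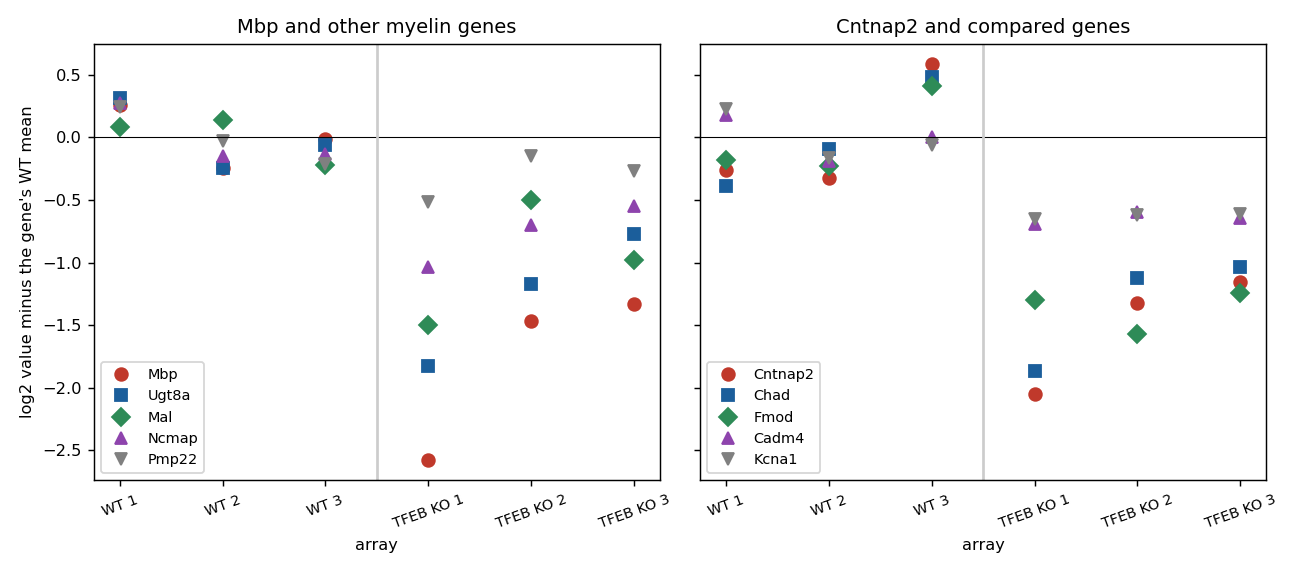
Log2 value minus the gene's WT mean (vertical axis) in each of the 6 arrays (horizontal axis), for Mbp and 4 other myelin genes (left) and for Cntnap2 and 4 genes compared with it (right), each on its brightest probe set. Mbp, Ugt8a, Mal and Ncmap are all lowest in KO 1, and Chad lies close to Cntnap2 in every array, at a root mean square difference of 0.17.

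Markers of other cells of muscle tissue moved with the same comparison, and their part in the lower myelin values was not tested. All 19 of 19 macrophage markers had a higher mean in KO muscle, with a median of 1.01, and 8 rose (0.871% of all genes did). Lgals3 rose by 2.09 (adjusted p = 0.011), Ctss by 2.07 (adjusted p = 0.0142), Mpeg1 by 1.75 (adjusted p = 0.0174) and Cd163 by 1.09 (adjusted p = 0.0277). The number that rose was 2 without WT 2 or KO 2, 3 without WT 1, WT 3 or KO 3 and 5 without KO 1. Levels summed over the 19 markers on the linear scale were 2642 to 4561 in WT and 7340 to 11647 in KO. For the 7 measured myelin and contact genes this sum was 2916 to 3582 in WT and 1593 to 2127 in KO.

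All 14 of 14 endothelial markers had a lower mean in KO muscle, with a median of -0.52, and 6 fell (0.702% of all genes did). Among the 6 were Rasip1 (-0.96, adjusted p = 0.011), Vwf (-0.86, adjusted p = 0.0146), Kdr (-0.89, adjusted p = 0.027) and Flt1 (-0.57, adjusted p = 0.0416). The number of endothelial markers that fell was 0 without WT 1, 1 without WT 2 or KO 2 and 3 without WT 3, KO 1 or KO 3. Their summed level was 3235 to 3591 in WT and 2249 to 2559 in KO. Of 9 tendon markers 8 were measured, all 8 had a lower mean, with a median of -0.71, and 3 fell (0.702% of all genes did). The 3 were Comp (-1.06, adjusted p = 0.00908), Fmod (-1.37, adjusted p = 0.0174) and Tnmd (-0.49, adjusted p = 0.0462). The number of tendon markers that fell was 1 without WT 1 or KO 2, 2 without WT 2, WT 3 or KO 3 and 4 without KO 1. Their summed level was 4846 to 5520 in WT and 3056 to 4050 in KO.

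Fibroblast markers, which nerve sheaths also hold, were mixed, with 4 of 10 lower, 6 higher, a median of 0.29 and 0 past the test (2 lower and 3 higher at an unadjusted p under 0.05). Mfap5 differed by 0.61 (adjusted p = 0.131) and Col1a2 by -0.74 (adjusted p = 0.143). Of 8 adipocyte markers 6 were measured, with a median of 0.37 and 0 past the test or at an unadjusted p under 0.05. Adipoq read 10.35, 9.60 and 9.22 in WT and 11.90, 9.90 and 9.90 in KO (adjusted p = 0.463), and Cidec differed by 0.67 (adjusted p = 0.543), so that the high value was in KO 1, the array with the lowest Mbp. Without KO 1 the medians of both lists were slightly below 0, at -0.01 for fibroblasts and -0.13 for adipocytes, and 2 fibroblast markers then fell. Summed levels were 18593 to 23475 in WT and 18600 to 29741 in KO for fibroblast markers, and 4890 to 5801 and 4774 to 12401 for adipocyte markers.

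The 7 Schwann cell markers summed to 437 to 519 in WT and 430 to 453 in KO, ranges that overlap. The 14 muscle fiber markers summed to 305436 to 313072 in WT and 303323 to 310588 in KO, with a median difference of 0.01 and 0 past the test (1 lower at an unadjusted p under 0.05). Ryr1, the calcium release channel, differed by -0.52 (adjusted p = 0.109) and Mb, myoglobin, by 0.15 (adjusted p = 0.47). Such sums follow the brightest probe sets of a list. RMA gives no value of 0, and the dimmest markers, by the mean over 6 arrays, were Itgam (4.49) for macrophages, Erg (5.41) for endothelium, Scx (5.83) for tendon and Sostdc1 (4.54) for Schwann cells.

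By array, the median of the 7 measured genes relative to WT was 0.11, -0.06 and -0.02 in WT 1, WT 2 and WT 3, and -0.69, -0.50 and -0.65 in KO 1, KO 2 and KO 3. The same median for macrophage markers was 1.46, 0.84 and 0.78 in the 3 KO arrays, for endothelial markers -0.70, -0.42 and -0.48, and for tendon markers -0.45, -0.82 and -0.82. KO 1, where Mbp, Mal and Cntnap2 were lowest, was the array with the highest macrophage and adipocyte medians (1.46 and 1.47) and the lowest endothelial median, while its tendon median was the nearest to WT. In KO 2 and KO 3 the adipocyte medians were -0.02 and -0.12, and those of the myelin and contact genes were -0.50 and -0.65. Any link between the medians of these lists was not tested.

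**Figure D5:**
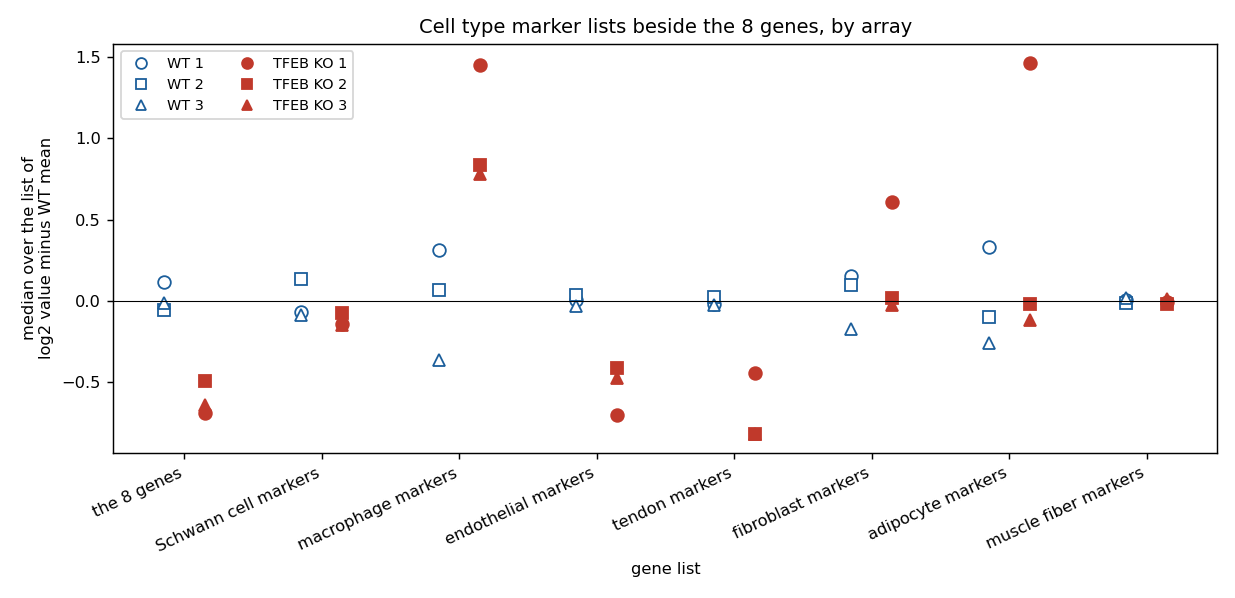
Median over each list of the log2 value minus the WT mean (vertical axis), for each of the 6 arrays, by gene list (horizontal axis), with WT as open blue and TFEB KO as filled red symbols and circle, square and triangle for replicates 1, 2 and 3. The 8 genes lie at -0.69, -0.50 and -0.65 in the 3 KO arrays, and the adipocyte markers are high in KO 1 alone among the KO arrays (1.47).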

How the data were processed

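The deposited values are on the log2 scale. The authors computed them by RMA in the R package affy, as the submitters' processing notes name it, and neither versions nor settings appear in the sources used here. Of 22690 probe sets, 22626 entered the test after removal of 64 Affymetrix controls. The platform annotation gives 1 gene symbol to 20380 probe sets, several to 691 and none to 1555. Entrez IDs matched 20364 of those with 1 symbol to RefSeq genes and changed 0 symbols. The groups were compared in R 4.3.3 by limma 3.58.1 (lmFit, eBayes; two-sided), and p-values were adjusted over all 22626 probe sets by the Benjamini-Hochberg method, with a threshold of 0.05. A gene was read on its brightest probe set, the 1 with the highest mean over 6 arrays. Intervals are 95% intervals from limma. The arrays have no depth, and their number limits the precision: 3 against 3 allow an exact permutation p of 0.1 at the smallest. P-values from limma weigh the difference between groups against the spread between mice of a group, moderated over all probe sets. The litters of the mice are unknown here.

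The members and the 14 lists of other genes were chosen with earlier results of these data known. Named in the text are all 8 members, Tfeb, at most 4 called genes per list (where 0 were called, the 2 of smallest p), and the 5 nearest genes in pattern to Mbp and to Cntnap2. Sox10 lies outside this rule and was looked up after its values were seen, as was the dimmest marker of a list. Motifs were searched on both strands in promoter windows of 300 bases from RefSeq, GRCm38.p6. The alternatives were quantile normalization repeated, arrays shifted to 1 common 75th percentile, removal of dim probe sets, moderation with trend and robust fitting, weights per array, a block for replicate number, a Student test, the mean over a gene's probe sets, and leaving out each array. The study lists the Student test for its data in general, and its test for the arrays is not known here. Scripts used Python 3.11.15 with pandas 2.3.3, NumPy 2.4.6, SciPy 1.17.1 and matplotlib 3.10.9.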

Additional observations from a re-analysis of the deposited data

How the results depend on the processing

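The median of the measured genes stayed between -0.55 and -0.82 in every alternative that gave one, and all 7 kept a lower mean in KO muscle in every alternative run (Mag was not in the fit without dim probe sets). The calls were less stable. The number of member probe sets past the test, 5, was 4 to 6 under 5 other settings and 1 with the replicate block. It was 0 with the Student test and 0 to 5 with 1 array left out. Mbp lost its call without WT 1, WT 2, WT 3 or KO 2 (adjusted p from 0.0709 to 0.143) and kept it without KO 1 (0.0115) and KO 3 (0.0471), and Cntnap2 and Cadm4 lost theirs without any single array (0.0631 to 0.133 and 0.0587 to 0.133). With the replicate block Mbp (0.0517) and Cadm4 (0.0585) lost theirs, and with trended and robust moderation Cntnap2 did (0.0577). As the mean of all its probe sets Mbp differed by -1.10 (adjusted p = 0.0333) and Cntnap2 by -0.60 (adjusted p = 0.0694). The 1 axon-glia contact gene past the test became 0 without dim probe sets, where 3 of the 17 genes were left. That count was also 0 with the replicate block, with the Student test and with any array left out. The 0 peripheral myelin protein genes became 1 with quantile normalization repeated, with dim probe sets removed, with trended and robust moderation and with array weights, 2 with the mean of all probe sets, and stayed 0 with any array left out. Over all probe sets, 361 became 1 with the Student test, 297 with the replicate block and 21 to 438 with 1 array left out. The cause of these changes was not tested. Whether the replicate numbers pair the samples is unknown here. Deviations from the group means correlated at 0.088, 0.048 and 0.265 between arrays of the same number. The value for WT 3 with KO 3 (0.265) was the highest of all pairs, while WT 1 correlated best with KO 2 (0.172). The deviations within a group of 3 arrays cancel out, so such correlations cannot settle the pairing. With 3 arrays a group, values near the bottom of the scale, such as the dimmer Cntnap2 probe sets, limit what could be seen.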
